A study of Homo sapiens with 4 samples.

Results

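Hemidesmosomes are the junctions by which basal epithelial cells, those of the mammary gland among them, hold on to the basement membrane. Outside the cell, laminin-332 is a trimer that holds the α3 and β3 chains (*LAMA3* and *LAMB3*), and it is the ligand of integrin α6β4 (*ITGA6* and *ITGB4*). Inside the cell, plectin (*PLEC*) and the dystonin isoform BP230 (*DST*) tie the integrin and the transmembrane collagen XVII (*COL17A1*) to keratin filaments, and the tetraspanin *CD151* sits beside laminin-binding integrins in the membrane. The 8 genes described here, *LAMA3*, *LAMB3*, *ITGA6*, *ITGB4*, *COL17A1*, *DST*, *PLEC* and *CD151*, were taken by name from the 16811 genes of the table, and all 8 were found in it. They were read as 3 sets, which were the 2 laminin-332 chains, the 2 integrin chains and the 4 plaque and membrane genes.

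MCF12A cells derive from non-tumorigenic breast epithelium, although the labels call the source a breast cancer cell line. RNA-seq was made from 2 libraries of wild-type cells and 2 libraries of cells labelled *C1orf132* KO, here called edited, in which the p2 promoter of this long noncoding RNA gene was removed with CRISPR/Cas9. Both kinds of cells were grown with 5% horse serum, 20 ng/mL EGF, hydrocortisone, cholera toxin and insulin, and poly(A)-selected RNA was read in single-end reads of 75 bases. Edited colonies were grown from single sorted cells, and the sources used here do not say whether the 2 edited libraries came from 1 colony or more. The level of *C1orf132* was not analysed here, and only the labels say which libraries are edited. In the text, paired values are given with replicate 1 first.

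The deposited values are a normalized expression signal and not read counts. How the authors scaled it is not given in the sources used here, and a scaling for transcript length was inferred from low values of a few genes. The depth is known only roughly. The most frequent ratio of low values, shared by 70 to 126 genes, put the depth relative to edited replicate 1 at 1.12 for the other edited library and 0.930 and 1.00 for the wild-type pair. The shallowest member was *LAMB3* in edited replicate 1, with about 1987 reads and a counting error near 2.24% by an estimate that rests on 5 genes, which is well under the spread between replicates. In the wild-type libraries the marker genes of basal mammary cells were present, with *KRT5* at 4590 and 11914, *KRT17* at 4947 and 5828 and *TP63* at 134 and 126 in replicates 1 and 2. In the bulk RNA used here, fewer cells of a type and less RNA per cell cannot be told apart.

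The 250 bases before the start of transcription are shown for the 3 genes whose edited values all lay below the wild-type values, *LAMA3*, *LAMB3* and *COL17A1*, and for *ITGA6*, whose groups overlapped. They come from a set of RefSeq promoters on GRCh38.p14 that held 5 of the 8 genes. Each lies before the most upstream start that this set lists for its gene. For *LAMA3* the 1 listed start is at 23873020, inside the span of the gene, and *LAMA3* transcripts from other starts are not shown. The windows are chr18:23872770-23873019 on the plus strand for *LAMA3*, chr1:209652426-209652675 on the minus strand for *LAMB3*, chr10:104085881-104086130 on the minus strand for *COL17A1* and chr2:172427086-172427335 on the plus strand for *ITGA6*. The sequences run 5′ to 3′ along the transcribed strand, and capitals mark matches on either strand to CACCTG (an E-box, the kind of site that ZEB and SNAIL factors bind), TGANTCA (AP-1) or GGGCGG (a GC box).
LAMA3: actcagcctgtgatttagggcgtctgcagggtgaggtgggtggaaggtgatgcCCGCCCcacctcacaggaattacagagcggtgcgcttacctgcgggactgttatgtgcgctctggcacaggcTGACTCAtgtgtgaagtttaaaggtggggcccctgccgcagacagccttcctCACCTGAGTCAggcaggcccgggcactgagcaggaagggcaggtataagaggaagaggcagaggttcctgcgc
LAMB3: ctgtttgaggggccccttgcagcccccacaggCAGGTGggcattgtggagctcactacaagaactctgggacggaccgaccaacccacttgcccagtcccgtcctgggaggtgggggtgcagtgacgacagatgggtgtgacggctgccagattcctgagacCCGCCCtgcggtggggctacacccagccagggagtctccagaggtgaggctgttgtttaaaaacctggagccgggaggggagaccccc
COL17A1: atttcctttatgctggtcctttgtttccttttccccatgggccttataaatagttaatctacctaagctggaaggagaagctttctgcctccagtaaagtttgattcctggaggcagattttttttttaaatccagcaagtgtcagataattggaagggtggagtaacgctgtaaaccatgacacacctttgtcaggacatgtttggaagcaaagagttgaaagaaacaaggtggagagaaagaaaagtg
ITGA6: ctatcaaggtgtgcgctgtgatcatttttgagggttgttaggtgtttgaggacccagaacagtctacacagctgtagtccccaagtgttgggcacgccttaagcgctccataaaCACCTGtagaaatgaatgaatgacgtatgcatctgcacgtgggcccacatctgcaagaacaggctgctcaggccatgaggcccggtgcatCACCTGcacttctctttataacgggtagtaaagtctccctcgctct

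The *LAMA3* window held 1 E-box, 2 AP-1 matches and 1 GC box, and its E-box, 73 bases before the start, overlapped one of the AP-1 matches, 69 bases before the start. The *LAMB3* window held 1 E-box, 218 bases before the start, and 1 GC box. RefSeq lists 2 further *LAMB3* starts, of which that at 209652329 had neither an E-box nor an AP-1 match and that at 209651374 had no E-box and an AP-1 match 67 bases upstream. The *COL17A1* window held none of the 3 motifs, had a GC content of 40.4% and held 1 CpG dinucleotide. In the *ITGA6* window there were 2 E-boxes, 136 and 46 bases before the start, and the window of the second *ITGA6* start, at 172427586, held 0 E-boxes and 3 GC boxes. The 3 windows of *DST*, whose groups overlapped, held 0 E-boxes and 0 AP-1 matches. Over all 35116 RefSeq windows of this length, 17.5% held an E-box, 6.57% an AP-1 match and 42.6% a GC box. These matches describe letters only, and binding was not measured.

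Against wild type, the laminin-332 α3 and β3 chains and collagen XVII were the genes with the largest differences among the 8. *COL17A1* passed the threshold, an adjusted p under 0.05 in limma over the 9590 genes with a mean signal of at least 10, and it was lower in edited cells. The other 7 members did not pass. That is 1 of 8 members, beside 7.09% of all tested genes called in either direction, 4.2% called lower and 2.89% called higher. At the adjusted p under 0.001 that the study used for its RNA-seq, 0 members and 0.0104% of tested genes passed in limma. The study reported far more genes at that threshold in its own analysis, so this share does not restate its result. At an unadjusted p under 0.05, 3 members and 32.3% of tested genes passed. The median log2 fold change was -2.61 for the laminin-332 chains, -0.46 for the integrin chains, -0.02 for the plaque and membrane genes and 0.09 for all tested genes.

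**Figure D1:**
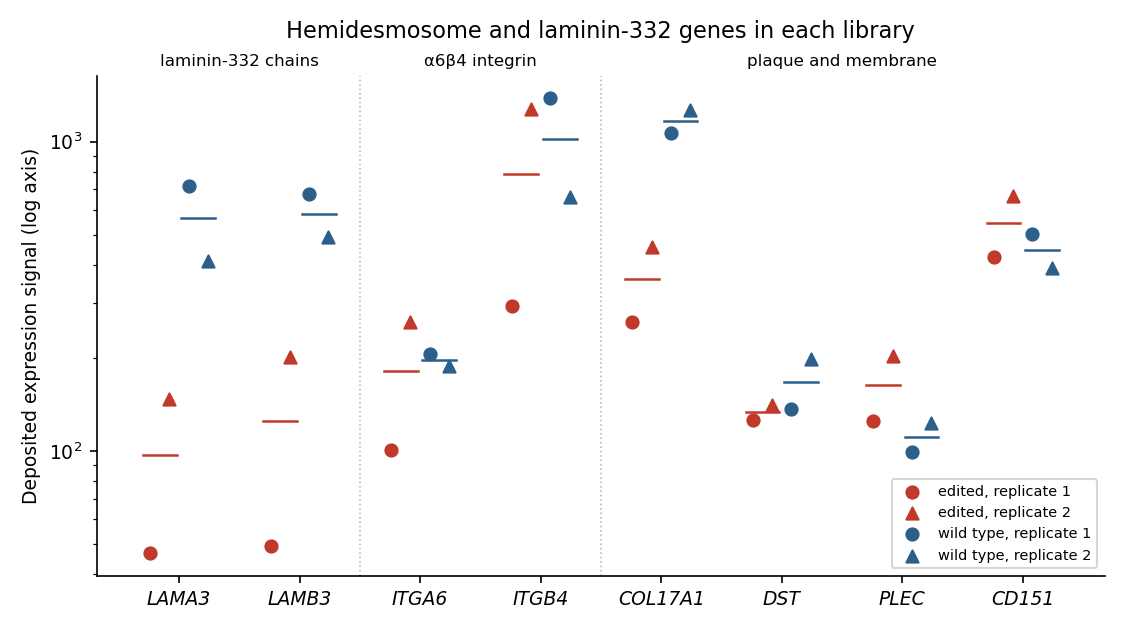
Deposited expression signal (log axis) of the 8 genes in each library, with edited libraries in red, wild-type libraries in blue, replicate 1 as circles, replicate 2 as triangles and group means as bars. The edited values of *LAMA3*, *LAMB3* and *COL17A1* all lie below the wild-type values, and edited replicate 1 lies below edited replicate 2 for every gene shown.

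*LAMA3*, on chromosome 18 from 23689453 to 23955066 (GRCh38), encodes the α3 chain, whose globular end is bound by integrins. Its signal was 46.7 and 148 for the edited pair, 718 and 412 for the wild-type pair. Both edited libraries lay below both wild-type libraries, at 8.27% and 26.1% of the wild-type mean. The mean was 97.2 ± 71.3 (SD, n = 2) after editing, 5.82-fold lower than the 565 ± 217 (SD, n = 2) of wild type. Its log2 fold change of -2.69 (standard error 0.58, 95% interval -4.12 to -1.26) missed the threshold, with an adjusted p = 0.0520 from limma. With 1 library left out, the limma adjusted p was 0.00154 (edited replicate 2), 0.0404 (edited replicate 1), 0.144 (wild-type replicate 1) or 0.192 (wild-type replicate 2).

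*LAMB3*, on chromosome 1 from 209614870 to 209652425, encodes the β3 chain of laminin-332. It was at 49.2 and 201 for the edited pair, 678 and 490 for the wild-type pair. Again the groups did not overlap, and the edited libraries held 8.43% and 34.4% of the wild-type mean. Edited cells averaged 125 ± 107 (SD, n = 2) and wild-type cells 584 ± 133 (SD, n = 2), which is 4.67-fold lower in edited cells. The log2 fold change of -2.52 (standard error 0.64, 95% interval -4.12 to -0.92) did not pass (adjusted p = 0.0715, limma). Without edited replicate 2 it was -3.52 with a limma adjusted p of 0.000677, and without any other single library the adjusted p was between 0.0514 and 0.254.

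*ITGB4*, on chromosome 17 from 75721459 to 75757818, encodes the β4 chain, whose long cytoplasmic tail binds plectin. It was listed at 294 and 1277 for the edited pair, 1378 and 660 for the wild-type pair. Edited replicate 2 lay between the wild-type libraries and edited replicate 1 below them. The means were 785 ± 695 (SD, n = 2) and 1019 ± 508 (SD, n = 2), and the log2 fold change was -0.64 (standard error 0.73, 95% interval -2.46 to 1.18, adjusted p = 0.580 from limma). The direction depended on the edited library, at -1.69 (adjusted p = 0.0451, limma) when edited replicate 2 was left out and 0.42 (adjusted p = 0.649) when edited replicate 1 was.

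*ITGA6*, on chromosome 2 from 172427336 to 172506459, encodes the α6 chain, which pairs with β4 in hemidesmosomes and with β1 elsewhere. Its signal was 101 and 261 for the edited pair, 206 and 188 for the wild-type pair. Edited replicate 1 lay below and edited replicate 2 above both wild-type values. The log2 fold change was -0.28 (standard error 0.45, 95% interval -1.40 to 0.84, adjusted p = 0.700 from limma). Leaving out edited replicate 1 gave 0.40, and leaving out edited replicate 2 gave -0.96.

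Among the plaque and membrane genes, *COL17A1* (chromosome 10 from 104031286 to 104085880) stood at 260 and 456 for the edited pair, 1062 and 1268 for the wild-type pair. Collagen XVII spans the membrane and reaches into the basement membrane. Both edited libraries were below both wild-type libraries, at 22.3% and 39.2% of the wild-type mean. The mean was 358 ± 139 (SD, n = 2) after editing, 3.25-fold lower than the 1165 ± 146 (SD, n = 2) of wild type. Its log2 fold change was -1.75 (standard error 0.32, 95% interval -2.54 to -0.95, adjusted p = 0.0405 from limma). This call was lost when wild-type replicate 1 (adjusted p = 0.104), wild-type replicate 2 (0.210) or edited replicate 1 (0.0736) was left out, while the log2 fold change stayed between -2.15 and -1.34.

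*DST*, on chromosome 6 from 56457996 to 56954830, encodes the dystonins, of which the epithelial isoform BP230 lies in the inner plaque. It was at 126 and 140 for the edited pair, 136 and 199 for the wild-type pair, and the groups overlapped. Its log2 fold change was -0.31 (standard error 0.25, 95% interval -0.92 to 0.31, adjusted p = 0.431 from limma). RefSeq lists 3 starts for *DST* in the table used here, and the gene-level signal does not separate its isoforms.

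*PLEC*, on chromosome 8 from 143915153 to 143976745, encodes plectin, the cross-linker between β4 and keratin filaments. Its signal of 125 and 202 in edited replicates 1 and 2 lay above the 98.8 and 123 of wild-type replicates 1 and 2, and edited replicate 1 exceeded wild-type replicate 2 by a narrow margin. It was the only member of the 8 whose edited values were all higher. The log2 fold change of 0.52 (standard error 0.29, 95% interval -0.20 to 1.25) did not pass the threshold (adjusted p = 0.263, limma).

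*CD151*, on chromosome 11 from 832952 to 838831, was at 424 and 668 for the edited pair, 504 and 389 for the wild-type pair. The groups overlapped, since edited replicate 1 lay between the wild-type values. The log2 fold change of 0.27 (standard error 0.30, 95% interval -0.47 to 1.01, adjusted p = 0.568 from limma) turned to -0.028 with quantile normalization, -0.049 with cyclic loess normalization and -0.061 without edited replicate 2.

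**Figure D2:**
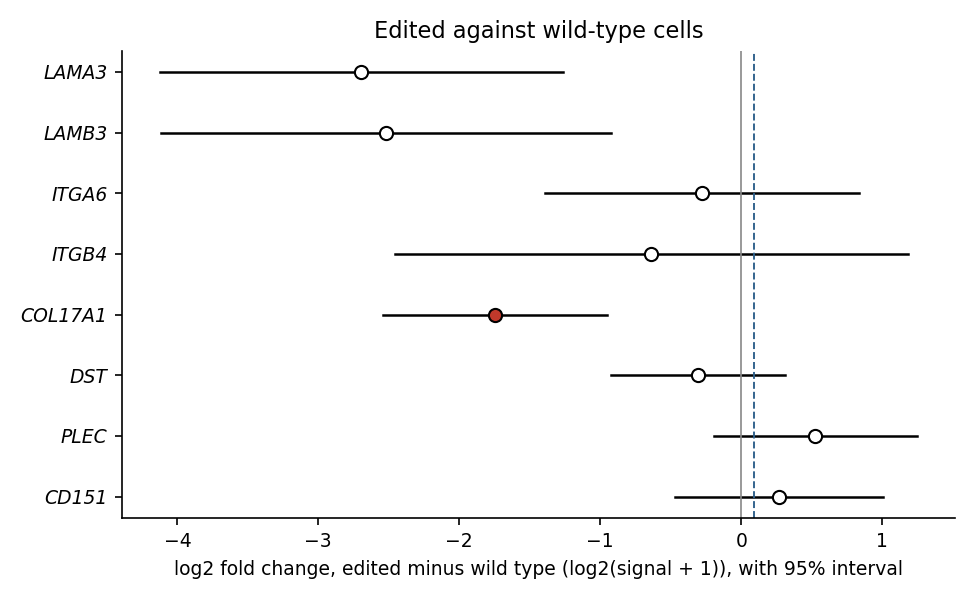
Log2 fold change of edited minus wild-type cells on log2(signal + 1) with its 95% interval from limma for the 8 genes, where the filled point has an adjusted p under 0.05, the solid line marks 0 and the dashed line the median of all tested genes (0.09). The intervals of *LAMA3*, *LAMB3* and *COL17A1* lie below 0, and those of the other genes include it.

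Over the 8 genes, the edited values lay wholly below the wild-type values for 3 and wholly above for 1, while the groups overlapped for the other 4. Among all tested genes, 26.9% had edited values wholly below and 38.3% wholly above. The log2 fold change was under 0 for 6 of the 8 members and for 43.3% of tested genes.

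The order of the genes by deposited signal differed between the groups. It compares levels between genes only if the signal is scaled for length, which was inferred from the lowest 5 of 16 genes and not stated. In wild-type cells the mean signals ran from *COL17A1* (1165) and *ITGB4* (1019) through *LAMB3* (584), *LAMA3* (565), *CD151* (446), *ITGA6* (197) and *DST* (167) to *PLEC* (111). The ranges of neighbours in this order overlapped for 5 of 7 pairs, and only *CD151* against *ITGA6* and *DST* against *PLEC* were apart. In edited cells the order was *ITGB4* (785), *CD151* (546), *COL17A1* (358), *ITGA6* (181), *PLEC* (164), *DST* (133), *LAMB3* (125) and *LAMA3* (97.2), and the ranges of neighbours overlapped for all 7 pairs. *LAMA3* went from rank 314 of the 9590 tested genes by mean signal in wild-type cells to rank 2456 in edited cells, and *LAMB3* from 304 to 1933, whereas *CD151* was at 401 and 402.

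The edited replicates differed from each other in the same direction for these genes. All 8 members were higher in edited replicate 2 than in edited replicate 1, beside 46.6% of all tested genes. The median difference in log2(signal + 1) was 1.09 over the members and -0.03 over all tested genes. It was largest for *ITGB4* (2.12) and *LAMB3* (2.01), where 0.949% and 1.07% of tested genes had a difference at least as large in either direction, and smallest for *DST* (0.16). Between the wild-type replicates, 5 of the 8 members were higher in replicate 1, beside 64% of tested genes, and *ITGB4* again differed most, by 2.09-fold.

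**Figure D3:**
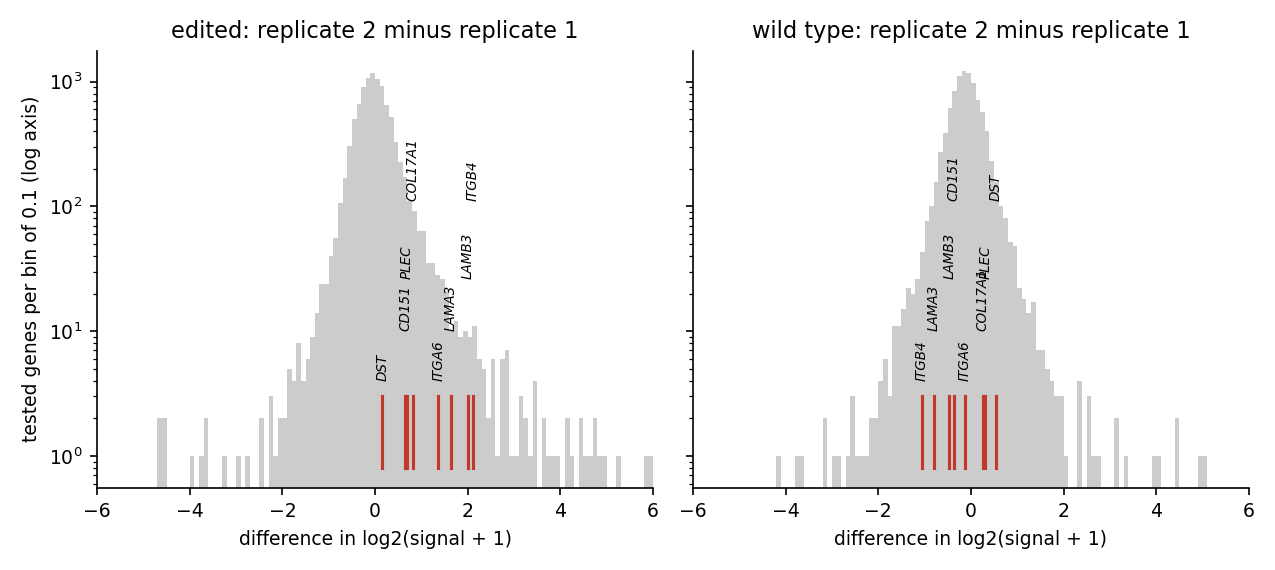
Difference in log2(signal + 1) of replicate 2 minus replicate 1 in edited (left) and wild-type cells (right), with all 9590 tested genes as grey bars (log axis) and the 8 genes as red marks. In the edited cells all marks lie above 0, from 0.16 for *DST* to 2.12 for *ITGB4*, and in wild-type cells they lie on both sides.

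Ratios within a library compare the chains without the scaling between libraries. *LAMB3* over *LAMA3* was 1.05 and 1.36 for the edited pair, 0.943 and 1.19 for the wild-type pair, so both chains of the pair kept to nearly equal signals in all 4 libraries. *ITGB4* over *ITGA6* was 2.92 and 4.89 for the edited pair, 6.69 and 3.51 for the wild-type pair, and the groups overlapped. Between ligand and receptor the groups were apart, with *LAMB3* over *ITGB4* at 0.167 and 0.157 for the edited pair, 0.492 and 0.743 for the wild-type pair, a difference of -1.88 in the mean log2 ratio.

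*COL17A1* over *PLEC* was close between replicates, at 2.08 and 2.25 for the edited pair, 10.7 and 10.3 for the wild-type pair, a difference of -2.27 in the mean log2 ratio. *DST* over *PLEC*, the plakin pair, was 1.01 and 0.694 for the edited pair, 1.38 and 1.61 for the wild-type pair. *ITGA6* over *CD151* was also lower in both edited libraries, at 0.237 and 0.391 against 0.409 and 0.484. *ITGB4* over *PLEC* overlapped between the groups. Of 7 pairs, 4 had groups that did not overlap, each with p = 0.33 (adjusted p = 0.583 over the 7 pairs) in an exact two-sided permutation test, and 0.33 is the smallest p that 2 against 2 libraries allow. For the other 3 the exact p was 0.667. How often the groups are apart for ratios of other gene pairs was not computed. Among single tested genes, 26.9% had edited values wholly below and 38.3% wholly above, so groups that are apart are common here.

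**Figure D4:**
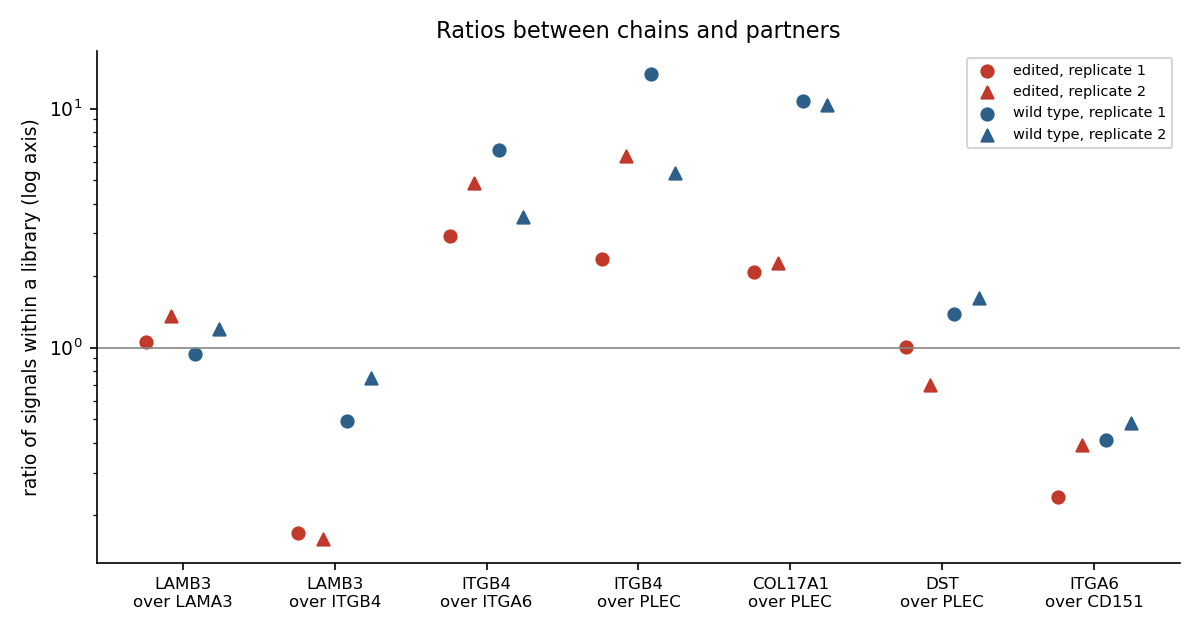
Ratio of the signals of 2 genes within each library (log axis), with edited libraries in red, wild-type libraries in blue, replicate 1 as circles and replicate 2 as triangles, and a line at 1. *LAMB3* over *LAMA3* lies near 1 in all 4 libraries, and *COL17A1* over *PLEC* is near 2 in the edited and above 10 in the wild-type libraries.

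Other genes of the basement membrane zone were read from lists. Genes of these lists that did not pass are named for their place in the structure, chosen after their values were seen. Of 8 other laminin chains, 4 were tested, 0 passed in either direction in limma and 0 had an unadjusted p under 0.05, and the median log2 fold change was -0.081. The 4 were *LAMA5*, *LAMB1*, *LAMB2* and *LAMC1*, with log2 fold changes of -0.38, -0.20, 0.04 and 0.06. *LAMA1* and *LAMA4* had a mean signal under 10 and were read from the fit without the filter, where *LAMA1* had a log2 fold change of -0.056 (limma adjusted p = 0.938). *LAMA4* was at 2.87 and 5.45 for the edited pair, 0.263 and 0.244 for the wild-type pair (1.99 on the log2 scale, limma adjusted p = 0.0435 over all 16811 genes). Its α4 chain is typical of endothelial and mesenchymal laminins.

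Of 7 other laminin receptors, 6 were tested and 1 passed, in the lower direction. This was *BCAM*, a receptor of the laminin α5 chain, at 62.5 and 64.0 for the edited pair, 122 and 122 for the wild-type pair (-0.94 on the log2 scale, limma adjusted p = 0.0419). *ITGA3* and *ITGB1*, the chains of the other main laminin-332 receptor, had log2 fold changes of 0.70 and 0.39 that did not pass (adjusted p = 0.175 and 0.374, limma). Of 5 tetraspanins, all were tested and *CD9* alone passed, lower in edited cells at 95.4 and 123 against 334 and 334 (-1.62 on the log2 scale, limma adjusted p = 0.0222).

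Of 16 basement membrane and anchoring genes, 11 were tested and 1 passed, *FERMT1*, which encodes kindlin-1 of the integrin adhesions of basal keratinocytes. It was at 24.8 and 23.98 for the edited pair, 46.0 and 48.4 for the wild-type pair (-0.93 on the log2 scale, limma adjusted p = 0.0379). *COL7A1*, the collagen of the anchoring fibrils beneath hemidesmosomes, was at 25.0 and 184 for the edited pair, 213 and 521 for the wild-type pair, and its log2 fold change of -2.27 did not pass (adjusted p = 0.166, limma). Of the genes of the receptor and basement membrane lists under the filter, *ITGA7*, *NID2* and *TLL1* had log2 fold changes of -0.35, -1.69 and -0.51 without it and did not pass (limma adjusted p = 0.432, 0.0511 and 0.469).

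Of 4 other plakins, relatives of *DST* and *PLEC*, all were tested with negative log2 fold changes, and the desmosomal *PPL* passed, at 4.53 and 4.05 for the edited pair, 21.4 and 20.96 for the wild-type pair (-2.07 on the log2 scale, limma adjusted p = 0.0148). The keratins of the basal layer, to which the plaque is tied, had edited values below both wild-type values and did not pass. *KRT5* was at 3514 and 3056 for the edited pair, 4590 and 11914 for the wild-type pair (log2 fold change -1.17, adjusted p = 0.146), and *KRT14* at 80.3 and 190 against 585 and 1880 (log2 fold change -3.08, adjusted p = 0.0512, limma).

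**Figure D5:**
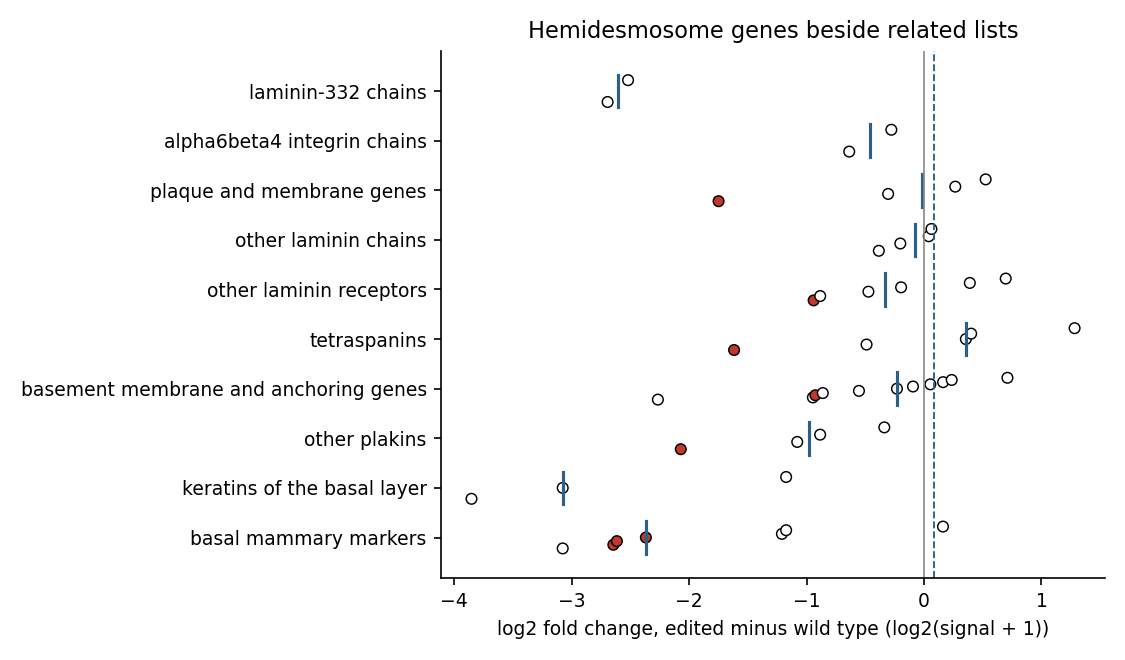
Log2 fold change of edited minus wild-type cells on log2(signal + 1) for the tested genes of each list, where filled points have an adjusted p under 0.05 in limma, blue bars are the median of the list, the solid line marks 0 and the dashed line the median of all tested genes (0.09). The laminin-332 chains lie at a median of -2.61, beside -0.081 for the other laminin chains and -2.37 for the basal mammary markers.

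Markers of cell identity were read in the same fit. Some differed between the groups, in both directions, and their part in the results above was not tested. Of 8 basal mammary markers 7 were tested and 3 passed, all lower in edited cells, and the median log2 fold change was -2.37. The 3 were *TP63*, *CDH3* (-2.61 on the log2 scale, limma adjusted p = 0.0120) and *KRT17* (-2.37 on the log2 scale, limma adjusted p = 0.0491). *CAV1*, of the same list, had a log2 fold change of 0.16 (limma adjusted p = 0.657). *TP63*, the basal transcription factor, was at 12.6 and 31.2 for the edited pair, 134 and 126 for the wild-type pair (-2.65 on the log2 scale, limma adjusted p = 0.0284). The summed signal of the basal list was 5063 and 5778 for the edited pair, 11592 and 21074 for the wild-type pair, with most of it from *KRT5* and *KRT17*. Of 8 mammary epithelial markers 7 were tested, 4 passed as lower and 1, *KRT8*, as higher (1.01 on the log2 scale, limma adjusted p = 0.0449). The median log2 fold change of this list was -2.31. The 4 lower were *ESRP1* (-5.89), *CDH1* (-5.28), *GRHL2* (-4.64) and *EPCAM* (-2.31 on the log2 scale). *KRT18* and *KRT7* had log2 fold changes of 0.89 and 0.56 that did not pass, and *CDH1* was at 3.89 and 1.54 for the edited pair, 150 and 123 for the wild-type pair. *KRT19* was listed at 0 in edited replicate 2.

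The summed signal of the epithelial list was 4248 and 4511 for the edited pair, 5068 and 2207 for the wild-type pair, with most of it from *KRT7*. Of 8 fibroblast markers only *COL1A1* and *DCN* were analysed, with a summed signal of 18.3 and 111 for the edited pair, 23.0 and 29.2 for the wild-type pair. *COL1A1* was lower in edited cells (-2.06 on the log2 scale, limma adjusted p = 0.0420). *DCN* was at 15.1 and 105 for the edited pair, 7.42 and 1.09 for the wild-type pair, so it was high in edited replicate 2, the edited library in which the members were also higher. Of 6 luminal markers, *GATA3*, *FOXA1* and *ESR1* were analysed, with summed signals between 8.65 and 19.6 in the 4 libraries. The 5 endothelial markers and 4 of 5 leukocyte markers were not analysed here, and *CD14* was between 8.98 and 15.1.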

How the data were processed

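RNA-seq libraries of 2 edited and 2 wild-type samples of MCF12A cells were grouped by their labels. The authors deposited an expression signal for 16811 genes by symbol; per the labels, the submitters' processing notes name HISAT2, Salmon and hg38, with no role or version, and the normalization is not given in the sources used here. The signal is not a count, so tests for counts were not used. Totals were between 1444640 and 1655440 per library. Relative depth is the most frequent ratio of low values (under 3) between libraries. Of 16 such genes with 1 annotated transcript, the 5 in the lowest cluster of signal times length in kb lay between 0.0990 and 0.113. A scaling for length was inferred from these 5 genes. They were picked as the lowest, so their narrow range does not test that scaling. Their value was taken as that of 1 read when read numbers were estimated (GENCODE lengths).

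All genes with a mean of at least 10 (9590) were fitted with limma 3.58.1 in R 4.3.3 on log2(signal + 1) with a variance trend, no replicate block and Benjamini-Hochberg adjustment, called at 0.05. The threshold of 0.05 is the study's general one, and 0.001, its RNA-seq threshold, is an alternative. Fold changes on this scale understate those of low genes. The fit was tested on simulated data, with noise drawn apart for each gene and library. That test says nothing about a shift that genes share between replicates. No source says whether the replicates were separate cultures beyond the word biological, so p-values measure the spread between these libraries. Members and lists were chosen with earlier results of these data known. Some results of the planned lists are not reported here. Every member is named, and other genes of a list where they passed or define the list. Alternatives were pseudocounts of 0.1 and 5, filters, scalings, the replicate block, no variance trend, a stricter threshold and each library left out. Python 3.11.15 with numpy 2.4.6 and pandas 2.3.3 was used. Positions and promoters are from RefSeq on GRCh38.p14.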

Additional observations from a re-analysis of the deposited data

How the results depend on the processing

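The count of genes called at an adjusted p under 0.05 in limma was 680. It was 419 with a mean of at least 50, 133 with the replicate block and 1 at an adjusted p under 0.001, and with 1 library left out it was 4 (wild-type replicate 2), 47 (wild-type replicate 1), 424 (edited replicate 1) or 1431 (edited replicate 2), in a fit where the lone library of a group is assumed to vary like the other group. Of the 8 members, 1 was called. It was 2 with a pseudocount of 5 and under each other scaling (equal totals, quantile, cyclic loess), each time *COL17A1* and *LAMA3*, and 3 with a mean of at least 50, *LAMB3* being the third. It was 0 at an adjusted p under 0.001 and 0 with the replicate block, where *COL17A1* had an adjusted p of 0.0639. With 1 library left out it ran from 0, without either wild-type library, to 4 without edited replicate 2. Same-numbered libraries did not deviate together (Pearson's r = -0.138 across the 9590 tested genes), and the labels do not say that a number marks a shared day or culture. The crossed pairing, added after seeing the data, gave 3 members, *LAMA3*, *LAMB3* and *COL17A1*. It also called more genes in all, 1002 of the 9590 tested.

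With 1 library left out, the median log2 fold change ran from -3.52 to -1.70 for the laminin-332 chains, from -1.33 to 0.41 for the integrin chains and from -0.22 to 0.18 for the plaque and membrane genes, the last being -0.29 with cyclic loess normalization. *ITGA6* ran from -0.96 to 0.40, *ITGB4* from -1.69 to 0.42 and *CD151* from -0.061 to 0.59, and *CD151* was -0.028 and -0.049 with quantile and cyclic loess normalization. The median of all tested genes went from 0.09 to -0.03 with equal library totals. The cause of these changes was not tested.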

Other observations

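*LAMB3* lies on the same chromosome arm as the edited locus, with 1792167 bases between the *C1orf132* and *LAMB3* spans that RefSeq gives on GRCh38. Between them, *PLXNA2*, the nearer to *C1orf132*, was at 23.7 and 37.6 for the edited pair, 32.6 and 26.9 for the wild-type pair (log2 fold change 0.012, limma adjusted p = 0.980). *MIR205HG*, the host gene of the epithelial miR-205, was lower in edited cells, at 203 and 297 for the edited pair, 815 and 748 for the wild-type pair (log2 fold change -1.66, limma adjusted p = 0.0285).

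The genes with the pattern most like the mean of *LAMA3* and *LAMB3*, by the root mean square distance of centred log2(signal + 1) over the 4 libraries, were *INHBA* (0.0996), *TP63* (0.281), *CTSS* (0.292), *SPINT1* (0.306) and *TYMP* (0.321), where the median over the other tested genes was 1.52. *COL17A1* was the nearest other member, at 0.641. For the mean of *ITGA6* and *ITGB4* they were *MT-RNR1* (0.0858), *TNIP1* (0.0865), *ZC3H12C* (0.116), *LTBP2* (0.125) and *FNDC3B* (0.127), against a median of 0.748. The distances describe 4 libraries, and no test goes with them. Signals of *INHBA* (0.663 and 5.85) and *CTSS* (0.886 and 3.26) for the edited pair were so low that the added 1 shaped their distances.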
